A study of Mus musculus with 9 samples.

Results

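The cytosolic ribosomal protein genes encode the proteins that, with ribosomal RNA, build both subunits of the ribosome outside the mitochondria. They were taken here as the genes whose symbol begins Rpl or Rps followed by a number, together with Rpsa, Rplp0 and Rplp2, on probe sets that carry exactly 1 gene symbol in the annotation of the array. That rule gave 49 genes on 105 probe sets, of 18193 genes on 34945 probe sets with 1 symbol, and the brightest probe set stood for each gene. The genes comprise 21 of the small subunit, 20 of the large subunit, 2 of the ribosomal stalk and 6 paralogs, which are related copies of a canonical ribosomal protein gene. The rule itself uses symbols, and the brightness of the probe set where a gene has several.

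RNA labelled as liver came from female MRL +/+ mice, an inbred strain prone to autoimmunity, at 11 weeks of age. Mice of the DCAC group received dichloroacetyl chloride and mice of the DCAA group received dichloroacetic anhydride, each at 0.2 mmol/kg in 100 µl of corn oil, injected into the peritoneum 2 times a week for 6 weeks. Control mice received corn oil, according to the design text, whereas the sample labels call them untreated. All livers were taken 24 h after the last treatment, 3 mice per group were processed separately, and each mouse has 1 array. The strain is the same in every group, and 1 dose and 1 time were examined. Both compounds deliver a dichloroacetyl group, and they differ in the leaving group, which is chloride in DCAC and dichloroacetate in DCAA.

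A ribosome carries a single copy of nearly every one of these proteins, and cells make them in matched amounts. Their mRNAs are among the most abundant in the cell and begin with a run of pyrimidines at the 5′ end, the terminal oligopyrimidine tract, through which mTOR signalling and the protein Larp1 govern their translation. The liver, which secretes much of the plasma protein, holds many ribosomes. Such control of translation need not alter the mRNA level, which is all that an array measures.

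The start regions of several members are shown because the tract is the feature that the family is known for. Each sequence runs 5′ to 3′ on the strand of the gene, from 40 bases before the annotated start to the first 20 bases of the transcript, in RefSeq's annotation of GRCm38.p6. Capitals mark the longest run of C followed by 4 or more C or T that overlaps the 20 bases on either side of the start.
Rps18, chr17:33955646-33955705, minus strand: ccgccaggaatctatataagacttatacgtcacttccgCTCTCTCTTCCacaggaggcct
Rps10, chr17:27635225-27635284, minus strand: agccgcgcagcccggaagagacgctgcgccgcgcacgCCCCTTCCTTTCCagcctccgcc
Rpl35, chr2:39005112-39005171, minus strand: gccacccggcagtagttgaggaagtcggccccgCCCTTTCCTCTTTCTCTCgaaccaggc
Rpl38, chr11:114668540-114668599, plus strand: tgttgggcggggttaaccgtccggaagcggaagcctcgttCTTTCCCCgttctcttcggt
Rplp0, chr5:115559427-115559486, plus strand: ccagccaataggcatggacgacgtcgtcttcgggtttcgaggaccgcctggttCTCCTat
Rps27, chr3:90213629-90213688, minus strand: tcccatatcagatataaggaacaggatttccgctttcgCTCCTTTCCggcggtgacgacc
Rps27l, chr9:66946046-66946105, plus strand: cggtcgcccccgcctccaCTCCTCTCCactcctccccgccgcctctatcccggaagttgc
The first 4 belong to genes that read above both controls on every DCAA array. Rplp0 has the smallest p between the compounds, and Rps27 and Rps27l are a canonical gene and its paralog. In Rpl38 the tract begins on the annotated start base itself, and in Rps18 and Rps27 it begins 2 bases before it. The marked run of Rplp0 is short and lies 13 bases after the start. The marked run of Rps27l begins 22 bases before the start and ends before it, outside the annotated transcript.

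Of the 49 genes 43 were found in the RefSeq promoter table; Rpl7, Rpl8, Rps14, Rps20, Rps29 and Rps4l were not in it. A C followed by 6 or more pyrimidines overlapped the 20 bases on either side of a start in 25 of 43 members (58.1%), compared with 26.7% of all 27025 genes of the table. With 4 or more pyrimidines after the C the counts were 35 of 43 members (81.4%) and 55.7% of all genes. These runs were searched on the strand of the gene only. The letters CGGAAG, the core bound by Ets family factors such as GABP, occurred on either strand within the 300 bases around the start in 30 members (69.8%) and in 18.8% of all genes. AANATGGC, the core of the YY1 site, was present in 7 members (16.3%) and 6.96% of all genes, and TATAAA, the TATA box, in 6 (14%) and 15.7%, both strands searched. CTTCCG, the other strand of CGGAAG, holds CTTCC, which also counts as a run of the shorter kind. A match describes letters, not binding.

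The array labelled control 2 stood apart. Its Spearman correlation with the rest had a median of 0.807, against 0.862 for DCAA 3 and 0.899 to 0.908 for the remaining arrays. The summed signal of 13 hepatocyte markers was 28059 on control 2. It was 449566 to 598643 on the DCAC arrays, 578074 to 634361 on the DCAA arrays and 468021 to 469898 on control 1 and control 3. The summed signal of 13 kidney tubule markers was 148178 on control 2, against 1879 to 2254 on the DCAC arrays, 2049 to 3215 on the DCAA arrays and 2109 to 2303 on control 1 and control 3. All 13 kidney markers were above their mean of the other 8 arrays there, by a median of 6.25 in log2, and the hepatocyte markers had a median of -6.95. The array labelled control 2 thus goes against its liver label. Control 2 was therefore kept out of the comparisons, which leaves 2 control arrays, and its values are given apart. Signal at the 3′ end over signal at the 5′ end of pyruvate carboxylase, read on control probes that track the state of the RNA and its labelling, was 2.85 and 3.99 on DCAC 1 and DCAC 2 but 12.8 on DCAC 3. It lay between 6.43 and 10.9 on the DCAA arrays and at 3.93 and 3.32 on the control arrays. The 4 high arrays and the others form 2 classes below. For DCAA against control, class and treatment coincide, and a blocking term for the class draws on the DCAC arrays alone to separate them.

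No ribosomal protein gene passed the test after either compound. As a group they read slightly higher on the DCAC and DCAA arrays than on both control arrays, and the size of that offset depended on how the arrays were scaled. The 49 probe sets took 1.60% ± 0.0510 (SD, n = 3) of the summed signal of a DCAC array, 1.58% ± 0.0547 (SD, n = 3) of a DCAA array and 1.47% ± 0.00791 (SD, n = 2) of a control array. Per array the share was 1.60%, 1.56% and 1.66% with DCAC, 1.56%, 1.64% and 1.54% with DCAA, and 1.47% and 1.48% in controls. Both control arrays lay below all 6 arrays of treated mice.

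**Figure D1:**
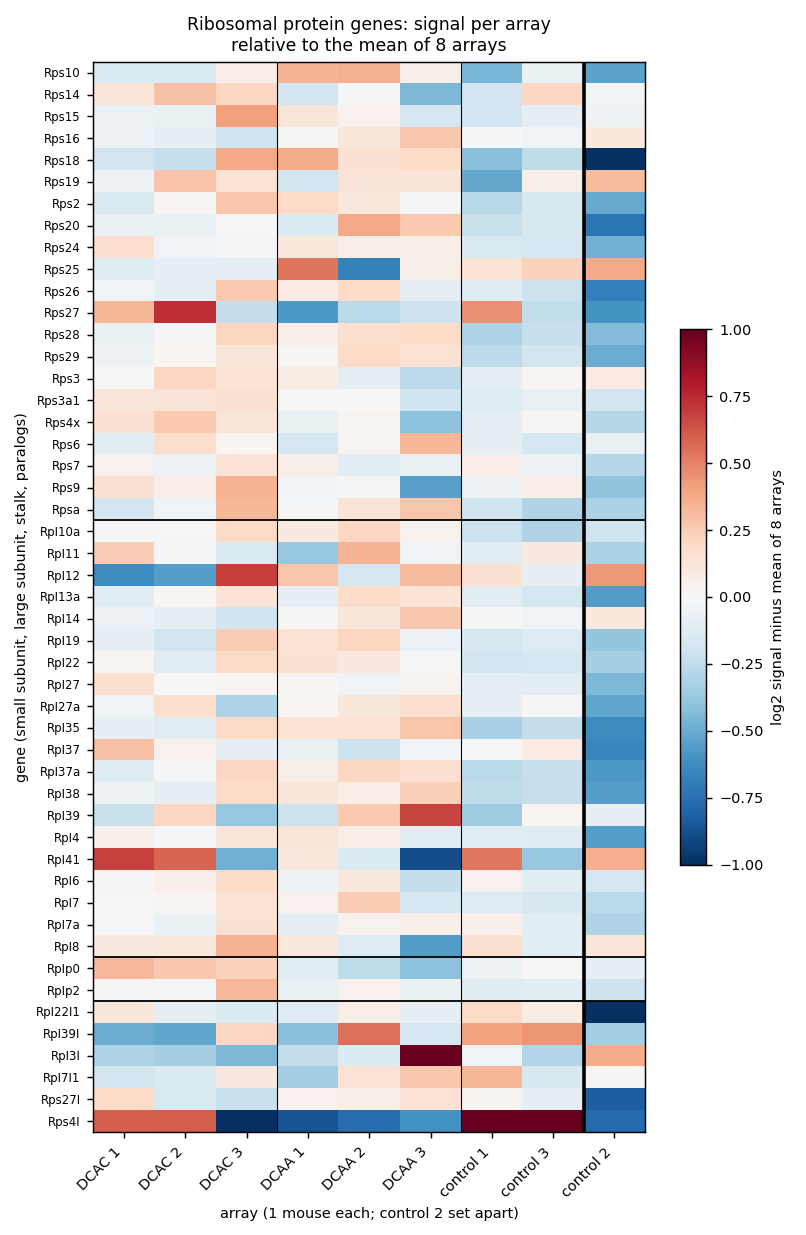
Log2 signal of each of the 49 ribosomal protein genes (vertical axis, grouped by role) on each array (horizontal axis, 1 mouse each), minus the gene's mean over 8 arrays. Colour runs from blue, 1 log2 unit below the mean, to red, 1 unit above. The control 1 and control 3 columns are mostly pale blue, the array labelled control 2, set apart at the right because its markers go against the liver label, is blue for most genes, and the few deep colours among the other columns belong to dim probe sets such as Rps4l and to Rpl41.

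The median deviation of the 49 genes from their own mean over 8 arrays, in log2, also put both control arrays lowest. It was -0.0278, -0.0134 and 0.138 on the DCAC arrays, 0.0146, 0.0681 and 0.0360 on the DCAA arrays, and -0.104 and -0.109 on the control arrays. DCAC 3 was the highest of the 8, and DCAC 1 and DCAC 2 lay close to the overall mean. After quantile normalization, which gives every array the same distribution of signals, the deviations were -0.000823, -0.0118 and 0.0340 with DCAC. They were then -0.0570, 0.0191 and 0.0142 with DCAA and -0.0185 and -0.0227 in controls, and the groups overlapped. The ribosomal protein probe sets sit near the top of each array, at a median percentile of 98.7 to 98.8 on these 8 arrays. At that end of the scale the arrays themselves differed, since the 99th percentile of signal was 14290, 14341 and 15519 with DCAC, 15204, 14493 and 13442 with DCAA, and 13097 and 13391 in controls. Its part in the offset was not tested beyond the quantile setting. In RNA of whole liver, fewer cells of a type and less RNA per cell cannot be told apart.

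**Figure D2:**
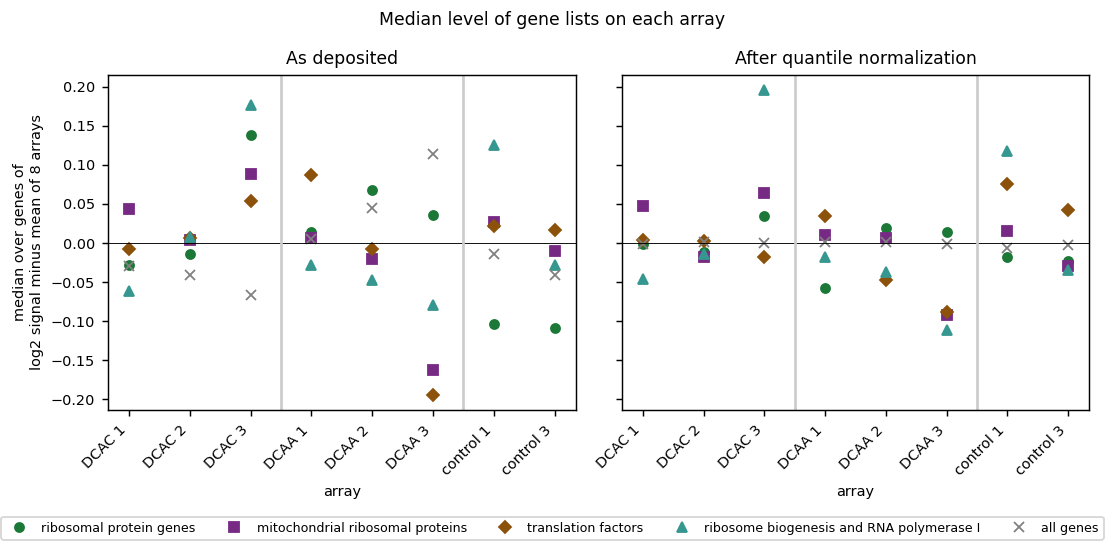
Median over the genes of each list of log2 signal minus the gene's mean over 8 arrays (vertical axis) on each array (horizontal axis), as deposited at the left and after quantile normalization at the right. Green circles are the 49 ribosomal protein genes, which lie at -0.104 and -0.109 on the control arrays as deposited and at -0.0185 and -0.0227 after quantile normalization. The other symbols are 3 related lists and all genes.

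DCAC was set against corn oil to see whether the acyl chloride was followed by a different level of these mRNAs. The median log2 difference over the 49 genes, DCAC minus control, was 0.170, against -0.0398 over all 18193 genes, and 38 of 49 were positive. The test, a linear model across all probe sets in limma with Benjamini-Hochberg adjustment, covered the 44 members whose signal exceeded the array median on at least 3 arrays. Of these 0 were called at an adjusted p under 0.05, where 0.0326% of the 24509 probe sets tested were called in either direction. Without adjustment 2 of 44 were higher at p under 0.05 and 0 were lower, against a background of 2.47% higher and 2.55% lower. The count of 2 was 5 without DCAC 1, 1 without DCAC 3, DCAA 2 or control 3, and 0 without DCAC 2 or control 1. The 3 DCAC arrays were above both controls for 22 of 44 genes and below both for 1, against 11.2% and 12.5% of probe sets tested. The 49 genes share their arrays, so such a count follows the offset of the 2 control arrays and is not a count of separate findings.

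For 42 of the 44 genes the 95% interval of the DCAC difference lay within 2-fold either way, and for 27 it lay within 1.5-fold. The median half-width was 1.26-fold, against 1.47-fold over all genes kept. The median SD within a group was 0.151 in log2 over the 44 members and 0.274 over the 12260 genes kept. The log2 differences of the 44 genes ran from -0.28 for Rps25 to 0.36 for Rps19.

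The anhydride was set against the same 2 control arrays, so the results for DCAC and DCAA are not independent. The median log2 difference over the 49 genes, DCAA minus control, was 0.145, against 0.0852 over all genes, and 32 of 49 were positive. Of 44 tested 0 were called, where 0.0816% of probe sets were called in either direction. Without adjustment 10 were higher at p under 0.05 and 0 lower, against 6.3% and 6.29% of probe sets tested. All 3 DCAA arrays lay above both controls for 21 genes and below both for 3, against 16.2% and 15.7%. The count of 10 became 2 higher and 3 lower after quantile normalization. It became 0 higher and 0 lower when every array was scaled to a common median, and 0 higher and 1 lower with the 3′/5′ class as a blocking term. Without control 1 it was 0, and it was 5 without control 3 and 5 without DCAA 2. The log2 differences of the 44 genes ran from -0.45 for Rps27 to 0.57 for Rps18.

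Between the compounds the median log2 difference, DCAC minus DCAA, was -0.0349 over the 49 genes and -0.0828 over all genes, with 22 of 49 positive. Of 44 genes 0 were called, where 0.00408% of probe sets were called in either direction. Without adjustment 6 were higher at p under 0.05 with DCAC and 1 lower, against 4.7% and 4.57%. The 6 became 2 when DCAC 1, DCAC 2 or DCAA 3 was left out. In 5 genes all DCAC arrays lay above all DCAA arrays and in 0 below, against 6.32% and 7.63%. For 41 of 44 genes the 95% interval of the difference between the compounds lay within 2-fold. These intervals bound the difference and do not show that the compounds act alike.

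**Figure D3:**
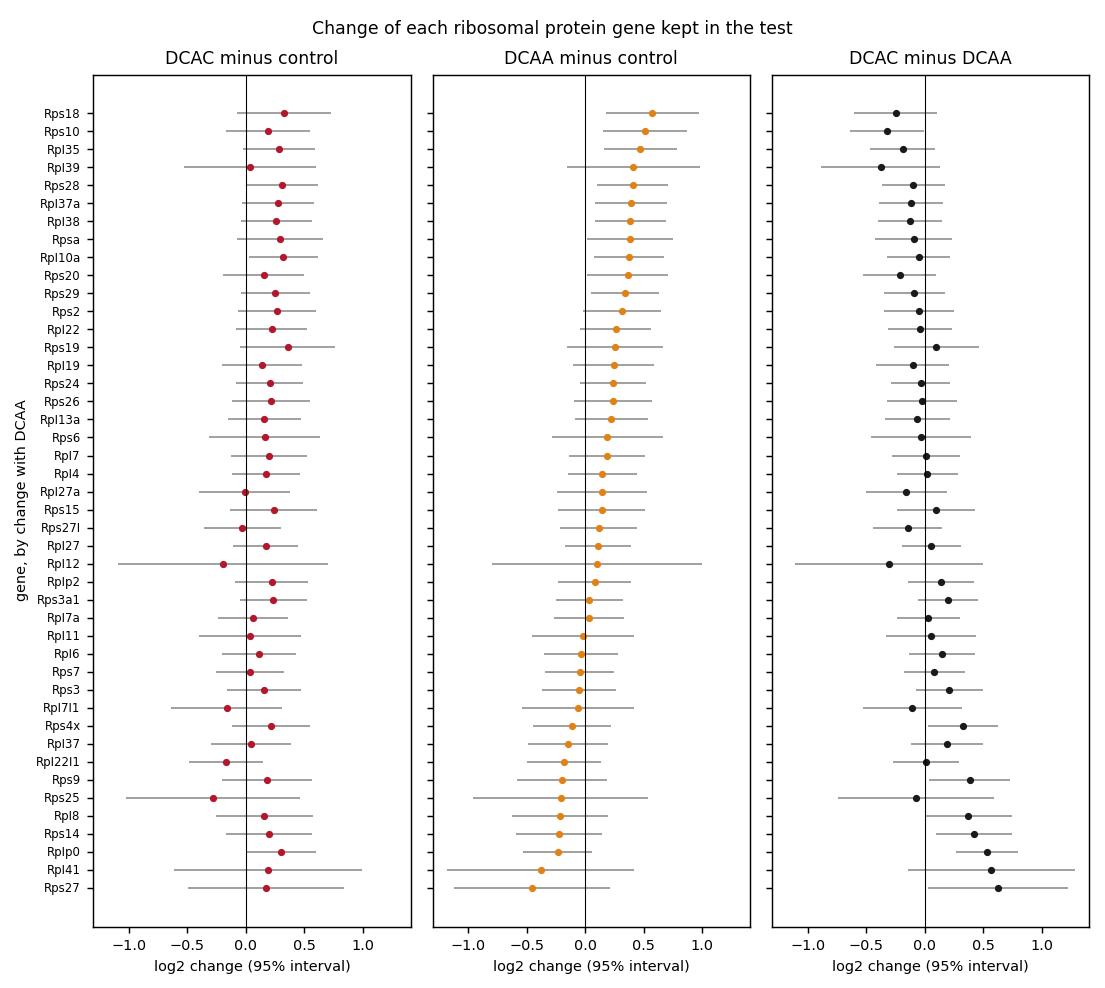
Log2 difference (horizontal axis) with its 95% interval (grey line) for each of the 44 ribosomal protein genes tested (vertical axis, ordered by the DCAA difference), for DCAC minus control, DCAA minus control and DCAC minus DCAA. Points for DCAC minus control lie between -0.28 and 0.36, and those for DCAA minus control between -0.45 and 0.57. None passed the adjusted threshold.

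Small-subunit genes held the highest values after DCAA. Rps18, a protein of the head of the small subunit, had signals of 24101, 23253 and 35454 with DCAC, 35402, 30344 and 30994 with DCAA, and 20418 and 22861 in controls. Every treated array was above both controls, and DCAC 3 read like the DCAA arrays while DCAC 1 and DCAC 2 were near the higher control. The log2 difference from control was 0.33 (SE 0.18) with DCAC and 0.57 (SE 0.18) with DCAA, where limma's adjusted p was 0.967 and 0.247. The DCAA value was -0.00832 once the 3′/5′ class entered as a blocking term. Another bright probe set of Rps18 gave 0.38 with DCAC and 0.54 with DCAA. A further bright one gave 0.13 with DCAC and -0.08 with DCAA, so the direction with DCAA differs between probe sets.

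Rps10, also of the head and mutated in some families with Diamond-Blackfan anaemia, read 24960, 25225 and 28907 with DCAC, 34986, 35448 and 28628 with DCAA, and 20113 and 26479 in controls. The DCAA arrays lay above both controls, and the DCAC arrays overlapped them. DCAA minus control was 0.51 (SE 0.16, limma adjusted p = 0.247), and DCAC minus DCAA was -0.32 (SE 0.15, limma adjusted p = 0.538). Averaged over the 6 probe sets of the gene, the DCAA difference was 0.131.

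Rps28, a small protein at the mRNA exit of the small subunit, showed 22351, 23379 and 27365 with DCAC, 24722, 26373 and 26813 with DCAA, and 19006 and 20147 in controls. Neither treated group overlapped the controls, and log2 differences were 0.31 (SE 0.14) with DCAC and 0.41 (SE 0.14) with DCAA. Rpsa, also known as the laminin receptor, gave 10037, 11067 and 14332 with DCAC, 11217, 12455 and 13817 with DCAA, and 9903 and 9220 in controls. Its treated groups also did not overlap the controls, although DCAC 1 was only just above control 1. The log2 differences of Rpsa were 0.29 (SE 0.17) with DCAC and 0.38 (SE 0.17) with DCAA. With the 3′/5′ class blocked the DCAA values were 0.148 for Rps28 and -0.0616 for Rpsa. Rps2, near the mRNA entry, and Rps29, a zinc-binding protein of the head, are with Rps10 the members with the highest signal. They were 0.27 and 0.25 above control with DCAC, and 0.31 and 0.34 above it with DCAA, in log2. After quantile normalization the DCAC values were 0.0501 for Rps2 and 0.0532 for Rps29, and the DCAA values 0.00961 and 0.0573. With the 3′/5′ class blocked the DCAA values were -0.0210 for Rps2 and 0.202 for Rps29. Signals of different probe sets depend on their probes and are not amounts of RNA to be compared between genes.

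A second set of small-subunit genes read higher with DCAC than with DCAA. Rps14, a protein of the platform, had 14650, 16520 and 15539 with DCAC, 11875, 13326 and 9830 with DCAA, and 11849 and 15501 in controls. The DCAC and DCAA arrays did not overlap, while the controls spanned both, and DCAC minus DCAA was 0.42 (SE 0.15, limma adjusted p = 0.467). The other probe set of Rps14, nearly as bright, gave 0.13 (limma adjusted p = 0.798). DCAA minus control was 0.26 by that probe set and -0.23 by the brightest one. Rps9, a protein near the mRNA entry that affects the accuracy of decoding, read 9001, 8484 and 10262 with DCAC, 7934, 7996 and 5549 with DCAA, and 7794 and 8466 in controls. DCAA 3 was far below the rest, and DCAC minus DCAA was 0.38 (SE 0.16, limma adjusted p = 0.507), or 0.21 without DCAA 3.

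Rps4x, encoded on the X chromosome, read 17064, 18421 and 16686 with DCAC, 14587, 15680 and 11593 with DCAA, and 14428 and 15512 in controls. DCAC minus DCAA was 0.33 (SE 0.14, limma adjusted p = 0.514) by the brightest probe set. The other probe set of the gene, with a mean signal of 77.9, was too dim to be kept. Rps3a1, near the mRNA exit, had 13915, 13991 and 14173 with DCAC, 12786, 12752 and 11128 with DCAA, and 11723 and 12135 in controls. Every DCAC array was above every other array, and the difference from control was 0.23 (SE 0.13). Rps6, the substrate of S6 kinase below mTOR, differed from control by 0.16 with DCAC and 0.19 with DCAA, both with an SE of 0.22. Its single-symbol probe sets are dim, at 519 to 737 on the 8 arrays for the brighter one.

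**Figure D4:**
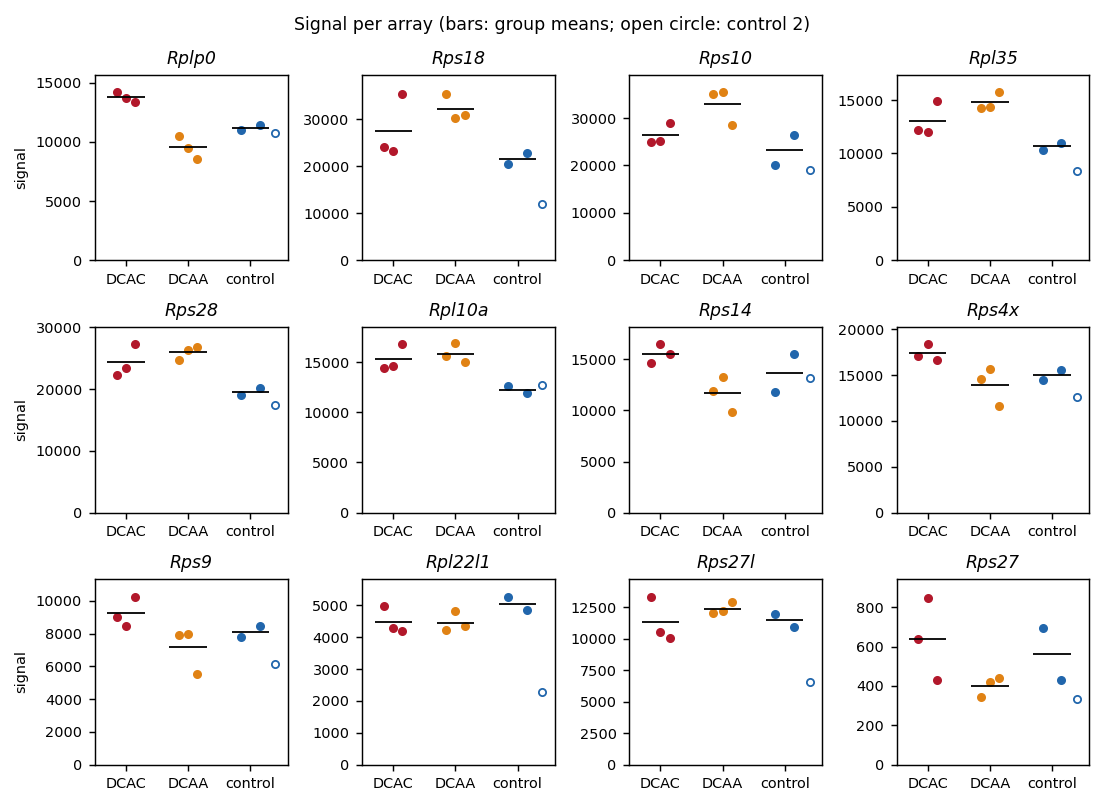
Deposited signal (vertical axis, linear, from 0) on each array for 12 ribosomal protein genes in the DCAC (red), DCAA (orange) and control (blue) groups. Filled points are single mice, bars are group means over 3, 3 and 2 mice, and the open circle is control 2, which entered no mean. Rplp0 is highest with DCAC, at 13353 to 14244, and lowest with DCAA, at 8590 to 10510, whereas Rps18 and Rpl35 are lowest in controls.

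Among large-subunit genes the median log2 difference was 0.158 with DCAC and 0.153 with DCAA over 20 genes, and over the 21 small-subunit genes it was 0.202 and 0.189. Rpl35, a protein at the mouth of the exit tunnel, had the smallest adjusted p of the family against control. Its signals were 12241, 12000 and 14892 with DCAC, 14289, 14374 and 15728 with DCAA, and 10348 and 11007 in controls. Both treated groups lay above both controls, and DCAA minus control was 0.47 (SE 0.14, limma adjusted p = 0.232). The value was 0.39 after quantile normalization and 0.17 with the 3′/5′ class blocked. The other bright probe sets of Rpl35 gave 0.48, 0.32, -0.06 and -0.06 for DCAA minus control, and a dim one gave 0.04.

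Rpl10a, which forms the mobile L1 stalk beside the exit site for tRNA, read 14422, 14655 and 16825 with DCAC, 15617, 16904 and 15010 with DCAA, and 12585 and 11881 in controls. No treated array overlapped a control, and the log2 differences were 0.32 (SE 0.14) with DCAC and 0.37 (SE 0.14) with DCAA, with limma adjusted p of 0.967 and 0.302. Rpl38, whose loss in mice gives the Tail-short skeletal defect, read 24157, 23645 and 28522 with DCAC, 27263, 26241 and 29465 with DCAA, and 21042 and 21330 in controls. Rpl37a, a zinc-binding protein, read 18203, 19611 and 22866 with DCAC, 20623, 22784 and 22060 with DCAA, and 16400 and 16829 in controls. In both genes the controls were below every treated array, and the log2 differences for Rpl38 were 0.26 with DCAC and 0.38 with DCAA and for Rpl37a 0.28 and 0.39. With the 3′/5′ class blocked the DCAA values were 0.161 for Rpl10a, 0.117 for Rpl37a and 0.128 for Rpl38, and after quantile normalization 0.253, 0.182 and 0.116.

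Rpl11, which with Rpl5 and 5S RNA binds Mdm2 and so links ribosome assembly to p53, did not follow. It read 14214, 11834 and 10864 with DCAC, 9193, 15163 and 11678 with DCAA, and 11143 and 12774 in controls. The groups overlapped fully, and the log2 differences were 0.04 (SE 0.20) with DCAC and -0.02 (SE 0.20) with DCAA. Rpl13a, which in human myeloid cells leaves the ribosome to silence inflammatory mRNAs after interferon gamma, differed by 0.16 (SE 0.14) with DCAC and 0.22 (SE 0.14) with DCAA. Rpl37, another zinc-binding protein, read 3673, 3092 and 2811 with DCAC, 2846, 2588 and 2906 with DCAA, and 2985 and 3163 in controls. All DCAA arrays were below both controls and the DCAC arrays overlapped them. The DCAA difference was -0.15 (SE 0.16), and 0.12 with the 3′/5′ class blocked.

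Rpl41, named because of its spread after its values were seen, encodes the shortest protein of the ribosome. It read 21873, 20310 and 9726 with DCAC, 14615, 12278 and 7365 with DCAA, and 19594 and 10431 in controls. The groups overlapped fully, and each held both high and low arrays. The lowest arrays of the groups were DCAC 3, DCAA 3 and control 3, which share a replicate number. Another bright probe set of Rpl41 gave 0.35 with DCAC and 0.28 with DCAA, against 0.19 and -0.38 by the brightest one.

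The stalk of the large subunit recruits the GTPase factors of translation, and its base protein Rplp0 had the smallest p between the compounds. Rplp0 read 14244, 13743 and 13353 with DCAC, 10510, 9526 and 8590 with DCAA, and 11019 and 11406 in controls. The DCAC arrays lay above both controls, the DCAA arrays lay below both, and no group overlapped another. DCAC minus DCAA was 0.53 in log2 (SE 0.12, 95% interval 0.27 to 0.80), with an unadjusted p of 0.000871 and a limma adjusted p of 0.403. It stayed between 0.46 and 0.72 under the alternatives tried, among them 0.47 after quantile normalization and 0.49 with the 3′/5′ class blocked, with a smallest adjusted p of 0.152. Against control the difference was 0.30 (SE 0.14) with DCAC and -0.24 (SE 0.14) with DCAA. Rplp2, which forms dimers that bind Rplp0, read 11961, 11702 and 14826 with DCAC, 11225, 12211 and 11300 with DCAA, and 10908 and 10993 in controls. All its treated arrays lay above both controls, by 0.22 (SE 0.14) with DCAC and 0.08 (SE 0.14) with DCAA, and DCAC minus DCAA was 0.14 (SE 0.13). The DCAA difference of Rplp2 was -0.0362 at a common median and -0.246 with the 3′/5′ class blocked.

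Of the 6 paralogs 0 were above control with DCAC, with a median log2 difference of -0.188, and 2 were above control with DCAA, with a median of -0.121. Only 3 of the 6 could be tested, and their difference from the canonical genes was not tested. Rpl22l1, whose mRNA Rpl22 is known to hold down in mice, read 4991, 4297 and 4184 with DCAC, 4220, 4813 and 4343 with DCAA, and 5246 and 4849 in controls. The DCAA arrays lay below both controls and the DCAC arrays overlapped them, at -0.17 (SE 0.15) with DCAC and -0.18 (SE 0.15) with DCAA. Its partner Rpl22 read 12353, 11263 and 13875 with DCAC, 13446, 12914 and 12103 with DCAA, and 10611 and 10793 in controls, with log2 differences of 0.22 and 0.26. The DCAA difference of Rpl22 was 0.0252 with the 3′/5′ class blocked. A second probe set of Rpl22 gave -0.36 with DCAA, so the direction of that gene differs between its probe sets.

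Rps27l, a paralog of Rps27 that p53 is known to induce, read 13328, 10528 and 10039 with DCAC, 12081, 12204 and 12904 with DCAA, and 11990 and 10950 in controls. Its DCAC arrays spanned the controls, and its DCAA arrays lay just above them by 0.11 (SE 0.15). Rps27 itself, on a dim probe set, read 639, 848 and 432 with DCAC, 342, 422 and 441 with DCAA, and 696 and 430 in controls. DCAC minus DCAA was 0.63 (SE 0.27, limma adjusted p = 0.524), and 0.11 with the 3′/5′ class blocked. Rpl7l1 read 1261, 1292 and 1523 with DCAC, 1130, 1579 and 1726 with DCAA, and 1801 and 1281 in controls, with full overlap. Its partner Rpl7 was 0.20 above control with DCAC and 0.19 with DCAA.

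Rpl39l, which replaces Rpl39 in male germ cells, Rpl3l, a form of striated muscle, and Rps4l were too dim to be tested. Rpl39l read at most 111 and Rpl3l at most 229 on the 8 arrays, and Rps4l read 155, 156 and 12.2 with DCAC, 42.0, 22.7 and 61.0 with DCAA, and 219 and 204 in controls. The probe sets of Rpl14 and Rps16 were below the 25th percentile on all 8 arrays, at 3.6 to 24.0 and 4.3 to 16.6. Those values are bounds on a dim probe set and not levels of the genes, since other probe sets of such genes carry several symbols. Rpl39, a small protein of the exit tunnel, was 0.03 above control with DCAC and 0.41 with DCAA (SE 0.26), and its groups overlapped. Rps25, known for its part in initiation at internal entry sites and also dim here, read 271, 277 and 277 with DCAC, 427, 185 and 307 with DCAA, and 323 and 345 in controls, and was the only tested member with all DCAC arrays below both controls.

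Probe sets of 1 gene often differed. In 20 genes at least 2 probe sets were kept, and their signs differed in 6 genes for DCAC against control, in 12 for DCAA against control and in 13 for DCAC against DCAA. The median range between probe sets of a gene was 0.199, 0.465 and 0.349 in that order, wider than the family's median difference in each comparison. The range reached 0.584 in Rps24 for DCAC and 1.09 in Rpl7l1 for DCAA. Of the 49 brightest probe sets 14 carry the suffix x and 2 the suffix s, which the manufacturer gives to probe sets that can bind other transcripts. A further 110 probe sets name a ribosomal protein gene beside other symbols and are not members. Their median differences were 0.147 with DCAC, 0.148 with DCAA and -0.0105 between the compounds. Of the 100 kept limma called 0, and at an unadjusted p under 0.05 6 were higher and 0 lower with DCAC, 18 and 4 with DCAA, and 6 and 0 for DCAC against DCAA.

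The differences of members with and without the promoter letters overlapped in every comparison. The 25 members with the longer run and the 18 without it had median differences of 0.170 and 0.178 with DCAC. These were 0.160 and 0.0679 with DCAA, and -0.0520 and 0.00771 between the compounds. A run counted here need not begin the transcript, since it could lie before or after the annotated start. Members with CGGAAG, 30 in number, and the 13 without it had medians of 0.164 and 0.183 with DCAC and 0.143 and 0.160 with DCAA. Between the compounds they were -0.0600 and -0.0349. All these medians include members too dim to be tested, and 0.160 with DCAA is the value of such a gene, Rpl14. The medians are descriptions with no test.

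The arrays with a high 3′/5′ ratio can be set beside those with a low ratio within DCAC. DCAC 3 exceeded the mean of DCAC 1 and DCAC 2 by a median of 0.134 over the 49 genes, with 31 positive. DCAC 1 and DCAC 2, of the same low class as the controls, exceeded control by a median of 0.132, with 38 of 49 positive. This sets 2 arrays against 2, with no test. After quantile normalization the deviations given above were -0.000823 and -0.0118 on those DCAC arrays and -0.0185 and -0.0227 on the controls. No DCAA array has a low ratio, so that within-class value does not exist for DCAA, whose median was 0.0379 with that class blocked. Over all genes the DCAA median was 0.105 in that setting, so the family then lay below it.

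Levels of other cells' genes also moved with the groups. The summed signal of 9 neutrophil markers was 2689 to 2925 with DCAC, 1881 to 4358 with DCAA and 1323 to 1745 in controls, and 7 of the 9 were tested. For 10 markers of T and NK cells, of which 4 were tested, it was 1308 to 1416 with DCAC, 1207 to 1691 with DCAA and 1878 to 2914 in controls. Of the 13 hepatocyte markers 0 were higher and 1 lower with DCAC at an unadjusted p under 0.05, where 2.47% and 2.55% of probe sets were. With DCAA 6 were higher and 0 lower, where 6.3% and 6.29% of probe sets were. After quantile normalization the median log2 deviation of these markers was 0.0185, 0.00580 and -0.0406 on the DCAA arrays. It was then 0.0364 and 0.0395 on the control arrays, so the hepatocyte markers no longer read higher with DCAA. The sums for 11 macrophage markers overlapped, at 10851 to 16902 with DCAC, 14056 to 15994 with DCAA and 10396 to 36662 in controls. The part of these cells in the ribosomal protein values was not tested.

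On the array labelled control 2, where the kidney tubule markers were high and the hepatocyte markers low, most ribosomal protein genes read low in deposited signal. Its values are thus no description of a control liver. That array lay below all 8 other arrays for 27 of 49 genes and above all 8 for 1, Rps19. Of all genes kept, 25.8% were below and 27.1% above. The median log2 difference of control 2 from the mean of the other controls was -0.245 over the 49 genes and 0.121 over all genes. Rpl22l1 read 2289 there, Rps18 11995 and Rps27l 6609, whereas Rplp0, at 10749, lay just below both other controls.

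Other parts of the translation machinery were read from lists of related genes. The 76 measured genes of mitochondrial ribosomal proteins had a median log2 difference of 0.0376 with DCAC and -0.0685 with DCAA, and 0 were called. At an unadjusted p under 0.05, 2 were higher and 0 lower with DCAC, and 1 was higher and 3 lower with DCAA, where 2.47% and 2.55% of all probe sets were with DCAC and 6.3% and 6.29% with DCAA. Mrps18b, a small-subunit protein of the mitochondrial ribosome, differed most, at 1737, 1330 and 1172 with DCAC, 1240, 821 and 718 with DCAA, and 1975 and 1667 in controls. Its DCAA arrays lay below both controls, by -1.01 in log2 (SE 0.25, limma adjusted p = 0.165).

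Translation factors, with 35 of 41 listed genes measured, had medians of -0.0227 with DCAC and -0.0638 with DCAA, and 0 were called. At an unadjusted p under 0.05, 1 was higher and 0 lower with DCAC, beside 2.47% and 2.55% of all probe sets. With DCAA 3 were higher and 7 lower, beside 6.3% and 6.29%. Eif3d, a cap-binding subunit of initiation factor eIF3, read 4128, 3608 and 4178 with DCAC, 3283, 3339 and 2499 with DCAA, and 5236 and 4634 in controls. Both treated groups were below the controls, by -0.31 (SE 0.17) with DCAC and -0.71 (SE 0.17, limma adjusted p = 0.163) with DCAA. Etf1, the release factor that reads stop codons, stood at -0.83 (SE 0.27) with DCAA.

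Genes of ribosome biogenesis and RNA polymerase I, 44 of 45 measured, had medians of 0.0133 with DCAC and -0.102 with DCAA. Of the 42 tested 0 were called. At an unadjusted p under 0.05, 1 was higher and 3 lower with DCAC, and 1 was higher and 6 lower with DCAA, beside the same shares of all probe sets. Bysl, which acts in assembly of the small subunit, read 524, 527 and 603 with DCAC, 328, 498 and 374 with DCAA, and 965 and 848 in controls. The treated groups lay below both controls, by -0.72 (SE 0.23, limma adjusted p = 0.799) with DCAC and -1.20 (SE 0.23, limma adjusted p = 0.104) with DCAA. Nolc1, a nucleolar phosphoprotein, differed by -1.53 (SE 0.55) with DCAA, on a dim probe set. Among 21 measured regulators of tract-bearing mRNAs the medians were -0.0613 with DCAC and -0.0950 with DCAA, and 0 were called. At an unadjusted p under 0.05, 1 was higher and 1 lower with DCAC, and 2 were higher and 0 lower with DCAA, again beside those shares. Eif4ebp1, the translation repressor that mTOR inactivates, read 2383, 3141 and 3431 with DCAC, 2391, 2699 and 3327 with DCAA, and 1921 and 2001 in controls. All treated arrays were above both controls, by 0.59 (SE 0.19, limma adjusted p = 0.799) with DCAC and 0.50 (SE 0.19, limma adjusted p = 0.320) with DCAA. Eif4ebp1 was not the largest change of its list, which ran from -0.61 to 0.67 with DCAC and -0.32 to 0.82 with DCAA. Of the 20 tested, 1 lay above both controls on all DCAC arrays and 4 below, where 11.2% and 12.5% of probe sets did. With DCAA 2 lay above and 3 below, where 16.2% and 15.7% did.

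**Figure D5:**
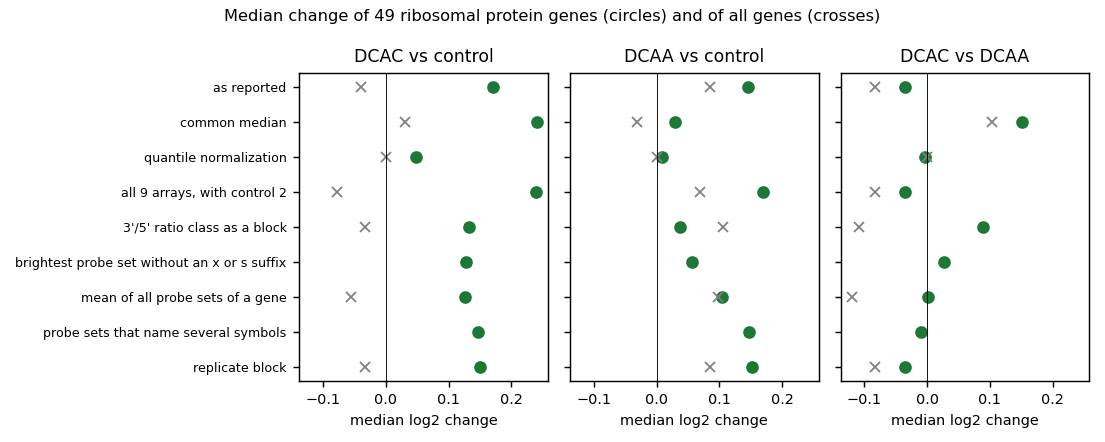
Median log2 difference over the 49 ribosomal protein genes (green circles, horizontal axis) and over all genes (crosses) in each comparison, as reported and under 8 other settings (vertical axis). Crosses are drawn where the setting defines them. The median for DCAC minus control stays above 0, at 0.0474 to 0.240, the one for DCAA minus control comes down to 0.00862, and the one for DCAC minus DCAA lies on both sides of 0.

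The median over the 49 genes for DCAC minus control was 0.0474 after quantile normalization and 0.240 with every array at a common median. For DCAA minus control these values were 0.00862 and 0.0295, and for DCAC minus DCAA -0.00411 and 0.151. The common median moves every gene by 1 constant, which for DCAC minus DCAA was 0.186, so the place of the family relative to all genes was the same under it. After quantile normalization the value between the compounds was close to 0. The size of both offsets from control moved by over 1.5 times under these settings except for DCAC at a common median.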

How the data were processed

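RNA of 9 samples labelled as liver was measured on Affymetrix arrays, 1 per mouse; the markers of control 2 go against that label. The authors deposited linear signal intensity for each probe set, from GCOS per the submitters' processing notes; its version is not given in the sources used here. From the values, each array has a mean of 500.0 once 2% of values are trimmed at either end. Array medians were 157 to 214, and the number of arrays limits the precision. The 64 control probe sets were left out of the tests. The 110 probe sets that name a ribosomal protein gene beside other symbols were tested but are not members. None of the 36 array pairs was identical.

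A floor was set at each array's 25th percentile, log2 was taken, and a probe set was kept if it exceeded the median of its array on 3 or more of 8 arrays. The test was limma (version 3.58.1, in R version 4.3.3; lmFit, then eBayes with trend), 3 groups in 1 model, two-sided, with Benjamini-Hochberg adjustment over all 24509 probe sets kept; the code was tested on simulated data. The brightest probe set has the highest mean log2 signal over 8 arrays. Members named are the 6 largest differences per direction and comparison among tested genes whose groups do not overlap, the 3 highest and 3 lowest signals, the paralogs with their partners and a few members with known roles. Up to 4 genes per related list are named. Rps19, Rps24 and Rpl41 fall outside the rule and were named after their values were seen. The members and lists were chosen with earlier results of these data known. Gene identifiers of all 49 members matched the RefSeq table. The 3′/5′ classes are split where the sorted log pyruvate carboxylase ratios lie farthest apart. Same-numbered arrays of different groups had deviations that correlated at -0.0413 to 0.0272 over all probe sets kept, so no shared deviation was seen at that scale. Single genes such as Rpl41 can differ from this. With so few arrays per group, this cannot exclude that mice were paired. Alternatives were other scalings, floors, filters, model settings, probe set choices, blocks, control 2 as a control and leaving out each array.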

Additional observations from a re-analysis of the deposited data

Results flagged for a closer look

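Rps19, a small-subunit protein often mutated in Diamond-Blackfan anaemia, read 8922 on the array labelled control 2, which is outside the comparisons and whose kidney tubule markers summed to 148178. That was above all 8 other arrays, which read 6937, 8749 and 7934 with DCAC, 6310, 7869 and 7860 with DCAA, and 5023 and 7459 in the 2 other controls. It was the 1 member of 49 for which control 2 was the highest array in deposited signal, while 27 members were lowest there.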

How the results depend on the processing

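The count of ribosomal protein genes called was 0 in all 3 comparisons and under each of 23 alternatives, and the smallest adjusted p was 0.435 for DCAC and 0.0920 for DCAA against control, both with array weights, and 0.152 between the compounds without DCAA replicate 1. The median difference moved by more than the SD between arrays, 0.0607, in these cases. For DCAC minus control, as 0.170, it was 0.239 with control 2, whose markers go against its liver label, included, 0.0474 after quantile normalization and 0.240 at a common median. For DCAA minus control, as 0.145, it was 0.00862 after quantile normalization, 0.0295 at a common median, 0.0379 with the 3′/5′ class blocked and 0.0558 by probe sets without an x or s suffix. Over all genes the DCAA median was 0.105 with that class blocked. For DCAC minus DCAA, as -0.0349, it was 0.151 at a common median, 0.0885 with the 3′/5′ class blocked and 0.0271 by probe sets without those suffixes. The cause was not tested. A common median shifted all genes by 0.0702, -0.116 and 0.186 in the order above, and the family's place relative to all genes was the same under it. Leaving out single arrays gave 0.132 to 0.200, 0.0962 to 0.173 and -0.0632 to 0.00260. With replicate number as a block the medians were 0.150, 0.152 and -0.0349, and that block changed no call. Among 726 values of named genes per comparison, the sign turned in 26, 27 and 61. With 2 control arrays, the median half-width of a member's 95% interval for DCAC minus control was 1.26-fold, and the several-symbol probe sets were added after the data were seen.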
